A study of Mus musculus with 6 samples.

Results

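Potassium channel and HCN channel subunits were read out of a table of mouse hippocampal gene expression that compares control animals with animals given repeated lidocaine. Members were all genes whose symbol is Kcn followed by letters and a number, or Hcn followed by a number, and whose estimated counts summed to at least 60 over the 6 libraries. Of 22050 genes in the table, 95 carried such a name and 78 reached the minimum. The lowest members inside it were Kcnk5 with 61 counts, Kcnv2 with 65 and Kcnk16 with 66. Just outside lay Kcne4 with 53 counts, Kcnmb1 with 35 and Kcnj15 with 31, and 5 of the 17 genes left out (Kcna10, Kcne3, Kcnk6, Kcnk18 and Kcnmb3) had 0. Kcnd2 was not analysed here.

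The samples were hippocampi of young mice, 3 from control mice and 3 from mice that received lidocaine injections. Lidocaine is a local anaesthetic whose main target is the voltage-gated sodium channel. The labels give no strain, sex, exact age, dose, route or interval, do not say what the controls received, and do not say whether each library is 1 animal, so the p-values reflect only how these libraries vary. Old mice belong to the design but were not analysed here. The comparison asks whether repeated lidocaine goes with a different level of any of these channel genes in the young hippocampus.

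Potassium channels let potassium leave the cell, and so set the resting potential, end the action potential and space out repeated firing. Voltage-gated pore subunits open on depolarisation, calcium- and sodium-activated ones follow the ion that entered during firing, inward rectifiers pass current near rest, and tandem-pore channels leak. HCN channels, relatives of the voltage-gated potassium channels, pass a mixed cation current that is switched on by hyperpolarisation and shapes dendritic integration in hippocampal pyramidal cells. Auxiliary subunits (Kv beta, KChIP, KCNE and BK beta proteins) bind the pores and alter their gating or their transport to the membrane.

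Libraries held 13887604 to 16984995 estimated counts, and channel members together took 0.480% of all counts. All 22050 rows carry rat Ensembl identifiers although the labels name the mouse, which leaves the reference species unknown, so no coordinates are given. Markers of excitatory hippocampal neurons were present, at a summed 4298 to 4510 CPM (counts relative to library size, scaled by TMM factors) in controls and 4297 to 5119 with lidocaine over 7 of 7 genes. Most of that sum was Slc17a7, at 2967 to 3275 CPM in controls and 3233 to 3608 CPM with lidocaine. Within the list of 7 the dentate granule cell marker Prox1 was the exception. It was listed at 0 in control 1 and in lidocaine 1 and 2, and at 1.33, 1.57 and 1.38 CPM in the others. Summed oligodendrocyte markers were lower with lidocaine, at 7898 to 10832 CPM over 7 of 7 genes against 10975 to 12670 CPM in controls. The same sum over 4 meningeal markers was higher, at 61.8 to 86.0 against 53.3 to 58.5 CPM. Of these, Igf2 (34.1 to 43.8 against 25.6 to 25.9 CPM) and Aldh1a2 (3.85 to 5.29 against 1.71 to 3.53) were separated. Dcn (17.5 to 31.3 against 21.3 to 27.3 CPM) and Slc6a13 (3.71 to 5.65 against 2.14 to 3.86) overlapped between the groups. No meningeal marker was called. Sums for inhibitory neurons, astrocytes, microglia, vessels, choroid plexus, thalamus and striatum overlapped between the groups. Fewer cells of a type and less RNA per cell cannot be told apart in such bulk samples.

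Levels of different genes are compared here in FPKM, a measure relative to both transcript length and sequencing depth. Over the 6 libraries, 28 members averaged 10 FPKM or more and 14 averaged less than 1. Kcnab2, the main Kv beta subunit of brain, stood far above every pore subunit in FPKM, at 305 ± 10.6 (SD over 6 libraries). The size of that gap depends on the transcript lengths behind FPKM. In CPM, Kcnab2 had 779 to 856 and the pore Kcna2 had 501 to 594 over the 6 libraries. The Kv beta family alone held 32.6% of the summed FPKM of all members. The next highest members were Hcn2, Kcnj6, Kcnab1, Kcnip2 and Kcna2. Within families, 37 of 62 neighbouring pairs in the order of levels had ranges over the 6 libraries that did not overlap.

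**Figure D1:**
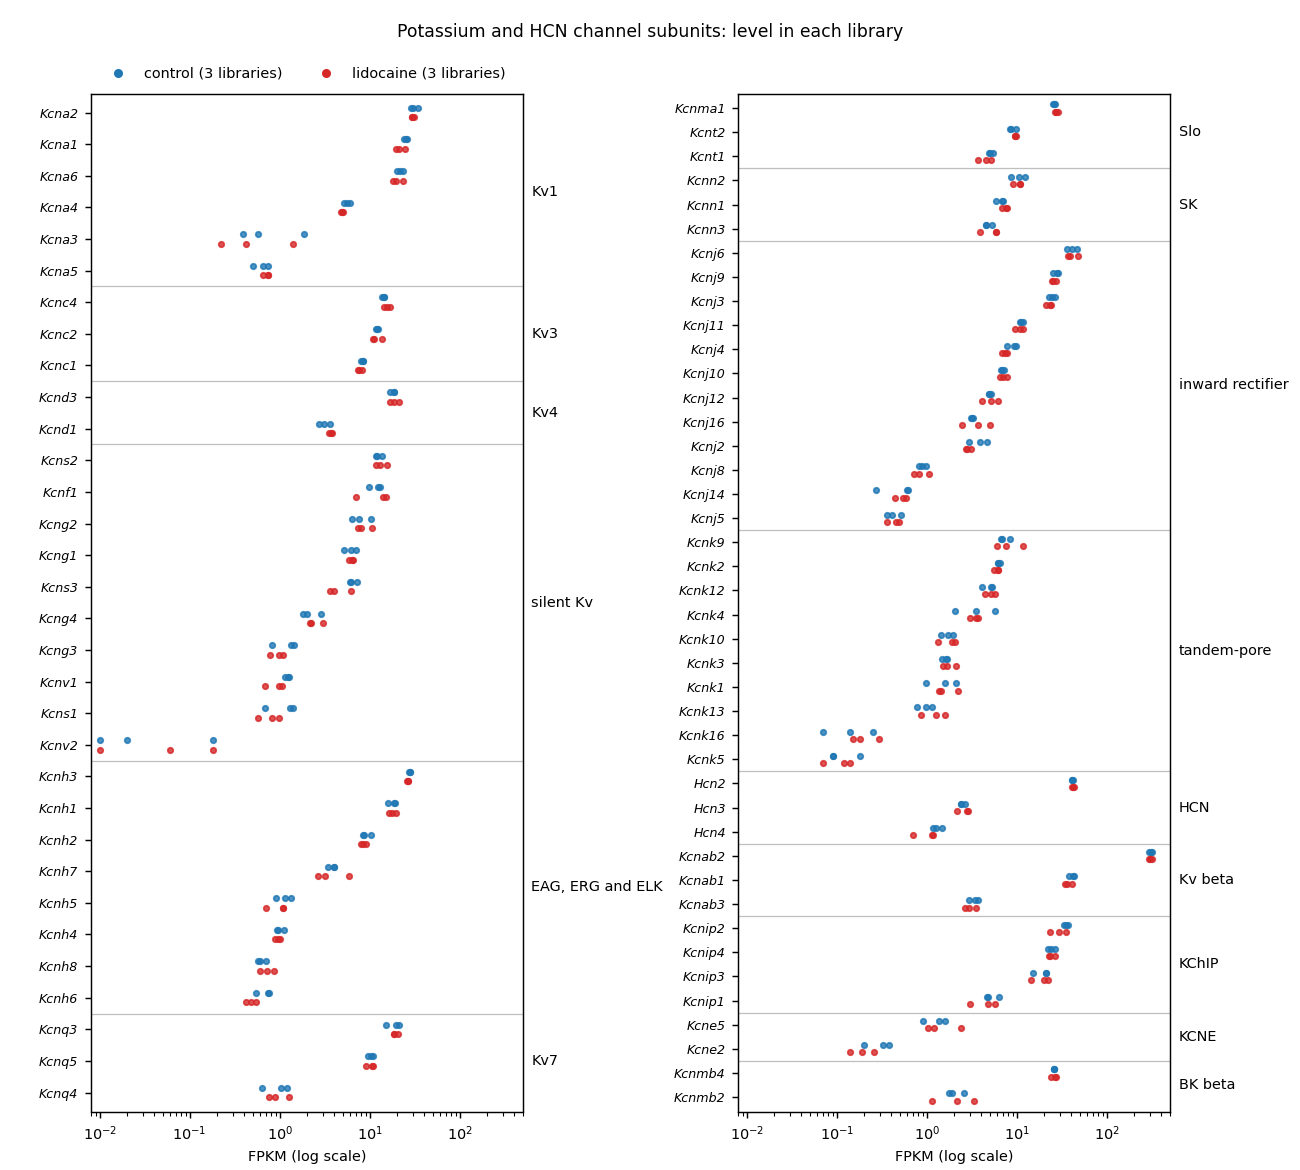
FPKM of 74 members on a log axis, grouped by family and ordered by mean level within it; each point is 1 library, blue for the 3 controls and red for the 3 lidocaine libraries. Kcnab2 lies near 305 FPKM, and Kcna3 and Kcnv2 scatter widely within both groups.

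Among Kv1 pores, which hold down axonal excitability, Kcna2 averaged 30.7 ± 1.98 FPKM. Kcna1 at 23.5 ± 2.53 and Kcna6 at 21.1 ± 2.14 FPKM followed and overlapped each other, whereas Kcna4 lay clear below them at 5.26 ± 0.45 FPKM. Of the Kv3 pores, which repolarise fast-spiking cells, Kcnc4 had 14.8 ± 1.15 FPKM, Kcnc2 11.998 ± 0.996 and Kcnc1 8.04 ± 0.44, with no overlap between these values. Of the A-type Kv4 pores analysed, which do not include Kcnd2, Kcnd3 had 18.4 ± 1.65 and Kcnd1 3.42 ± 0.42 FPKM. The M-current pore Kcnq3 lay at 19.0 ± 2.14 FPKM, and its relative Kcnq5 lay below it at 10.3 ± 0.80. In the EAG, ERG and ELK group Kcnh3, an ELK-type channel of forebrain neurons, led at 27.0 ± 0.91 FPKM, ahead of Kcnh1 at 17.9 ± 1.5 FPKM. Silent Kv subunits form no channel alone and modify Kv2 pores. Of these, Kcns2 at 12.9 ± 1.47 and Kcnf1 at 11.9 ± 2.97 FPKM were the highest, and 5 neighbours from Kcns2 down to Kcns3 overlapped each in turn.

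The calcium-activated BK pore Kcnma1 averaged 26.5 ± 1.27 FPKM, above the sodium-activated Kcnt2 at 9.20 ± 0.60 and Kcnt1 at 4.76 ± 0.59. The small-conductance SK pores contribute to the afterhyperpolarisation. They ran from Kcnn2 at 10.3 ± 1.34 FPKM through Kcnn1 at 6.97 ± 0.64 to Kcnn3 at 4.99 ± 0.77. Neighbours did not overlap. G-protein-gated inward rectifiers led their family. Kcnj6 had 41.0 ± 5.03 FPKM, Kcnj9 26.3 ± 1.85 and Kcnj3 23.7 ± 1.82, of which the last pair overlapped, while their relative Kcnj5, best known from the heart, had only 0.430 ± 0.06. Kcnj11, the pore of ATP-sensitive channels, had 10.9 ± 0.82, and the glial channel Kcnj10 had 6.94 ± 0.45 FPKM. Tandem-pore channels were low throughout, between 0.115 FPKM for Kcnk5 and 7.83 ± 2.02 FPKM for Kcnk9, an acid-sensitive leak channel. Kcnk1 averaged 1.61 ± 0.47 FPKM, with fractional counts in every library. Among HCN members, Hcn2 had 41.5 ± 0.95, Hcn3 2.52 ± 0.26 and Hcn4 1.15 ± 0.25 FPKM, again without overlap between these values.

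Auxiliary subunits were carried by a few genes. After Kcnab2, Kcnab1, which adds fast inactivation to Kv1 channels, had 38.8 ± 3.5 FPKM. The Kv4-binding KChIP proteins were led by Kcnip2 at 32.1 ± 4.98 FPKM, which overlapped with Kcnip4 at 23.9 ± 1.75, and Kcnip3, also known as the calcium-binding repressor DREAM, had 18.8 ± 3.25. Kcnmb4, the neuronal BK beta subunit, had 25.8 ± 1.12 FPKM against 2.13 ± 0.74 for Kcnmb2. KCNE subunits were near the floor, with Kcne5 at 1.41 ± 0.54 and Kcne2, a choroid plexus gene, at 0.248 ± 0.09 FPKM.

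The length behind an FPKM value was not constant for every member. Dividing counts by FPKM and by the library total gave an implied transcript length, whose highest value over the 6 libraries was 1.024 times the lowest for the median member. For Kcnmb2 it ranged from 1.36 to 2.95 kilobases, for Kcnv2 from 6.90 to 11.8, for Kcnk3 from 4.92 to 6.76 and for Kcnk2 from 3.32 to 3.99. Kcna2 had the longest of the named members that varied, 16.1 to 18.7 kilobases, and this gene was second by counts but sixth by FPKM. Fold changes below therefore rest on counts, and FPKM is an alternative.

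Many of these channels are built from several subunits, so ratios between partners were compared for 8 pairs picked once their levels were known. The ratio of the M-current pores Kcnq5/Kcnq3 was 0.489, 0.718 and 0.482 in the controls (1 to 3, in this order throughout), and the lidocaine libraries had 0.528, 0.579 and 0.480. Control 2 lay above the rest, and the group means were 0.563 ± 0.13 and 0.529 ± 0.05 (SD, n = 3 each). The ratio of Kcnmb4 to its pore Kcnma1 was 0.993, 1.04 and 0.995 in controls and 1.023, 0.986 and 0.829 with lidocaine. Control values were close together, and lidocaine 3 lay below the rest. Kcnj6/Kcnj3 ranged from 1.57 to 2.003 over all libraries and Kcnab1/Kcnab2 from 0.112 to 0.139.

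One ratio had groups that did not overlap. Kcnip4/Kcnip2 was 0.738, 0.645 and 0.670 in controls and 0.980, 0.770 and 0.744 with lidocaine. By an exact permutation test, two-sided, p was 0.1, which is as low as 3 against 3 libraries can go, and 0.8 after Benjamini-Hochberg adjustment over the 8 ratios. The other 7 ratios had overlapping groups and exact permutation p-values from 0.2 to 1.

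**Figure D2:**
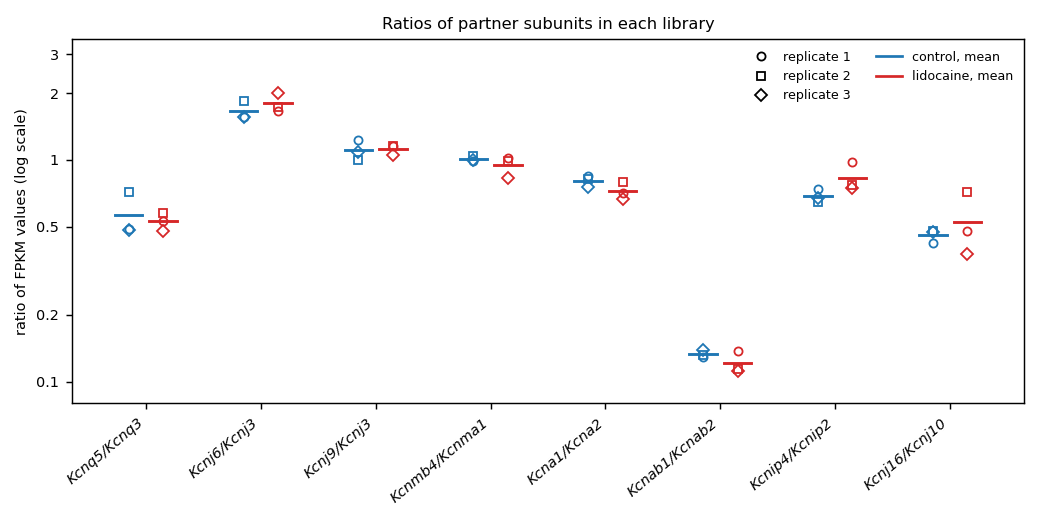
Ratio of the FPKM values of partner subunits in each library on a log axis; symbols mark the replicate number, blue is control, red is lidocaine, and the short lines are group means of 3 libraries. Only Kcnip4/Kcnip2 has groups that do not overlap, and in Kcnmb4/Kcnma1 lidocaine library 3 lies apart at 0.829.

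No channel subunit was called different between lidocaine and control hippocampus. Of the 78 members, 77 passed the filter on low counts, and edgeR's quasi-likelihood test with Benjamini-Hochberg adjustment over all 13408 tested genes called 0 of them at an adjusted p under 0.05. The share called among all tested genes was 0.0149%, or 2 genes. The smallest adjusted p of a member was 0.995. DESeq2 also called 0 members, against 0.172% of all tested genes. At an unadjusted p under 0.05 edgeR gave 2 members, Kcnj4 and Kcns3, or 2.60% of those tested, where the share over all genes was 4.36%. Both were lower with lidocaine, a direction that 2.36% of all genes took at that threshold. The members' count was 4 without control 1, where the share over all genes was 3.69%, and 1 without lidocaine 1, beside 4.71%. It was 4 without lidocaine 2, beside 3.84%, and 5 without lidocaine 3, beside 5.20%.

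Fold changes were small and of both signs. Of the tested members, 36 had a positive and 41 a negative log2 fold change, with a median of -0.02 beside 0.00 for all tested genes. The median was -0.06 without lidocaine library 2. Members ranged from -0.61 for Kcne2 to 0.39 for Kcnk16, both of them among the least counted. The median size of a change, regardless of sign, was 0.11 for members and 0.10 (0.099) for all genes. For 47 of the 77 members the 95% interval of the fold change lay within 1.5-fold in either direction, and for 69 it lay within 2-fold. The remaining 8, for which a 2-fold difference was inside the interval, were Kcna3, Kcne2, Kcne5, Kcng3, Kcnh6, Kcnk5, Kcnk16 and Kcns1. Of all 13408 tested genes, 8523 had an interval within 1.5-fold and 11167 within 2-fold.

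**Figure D3:**
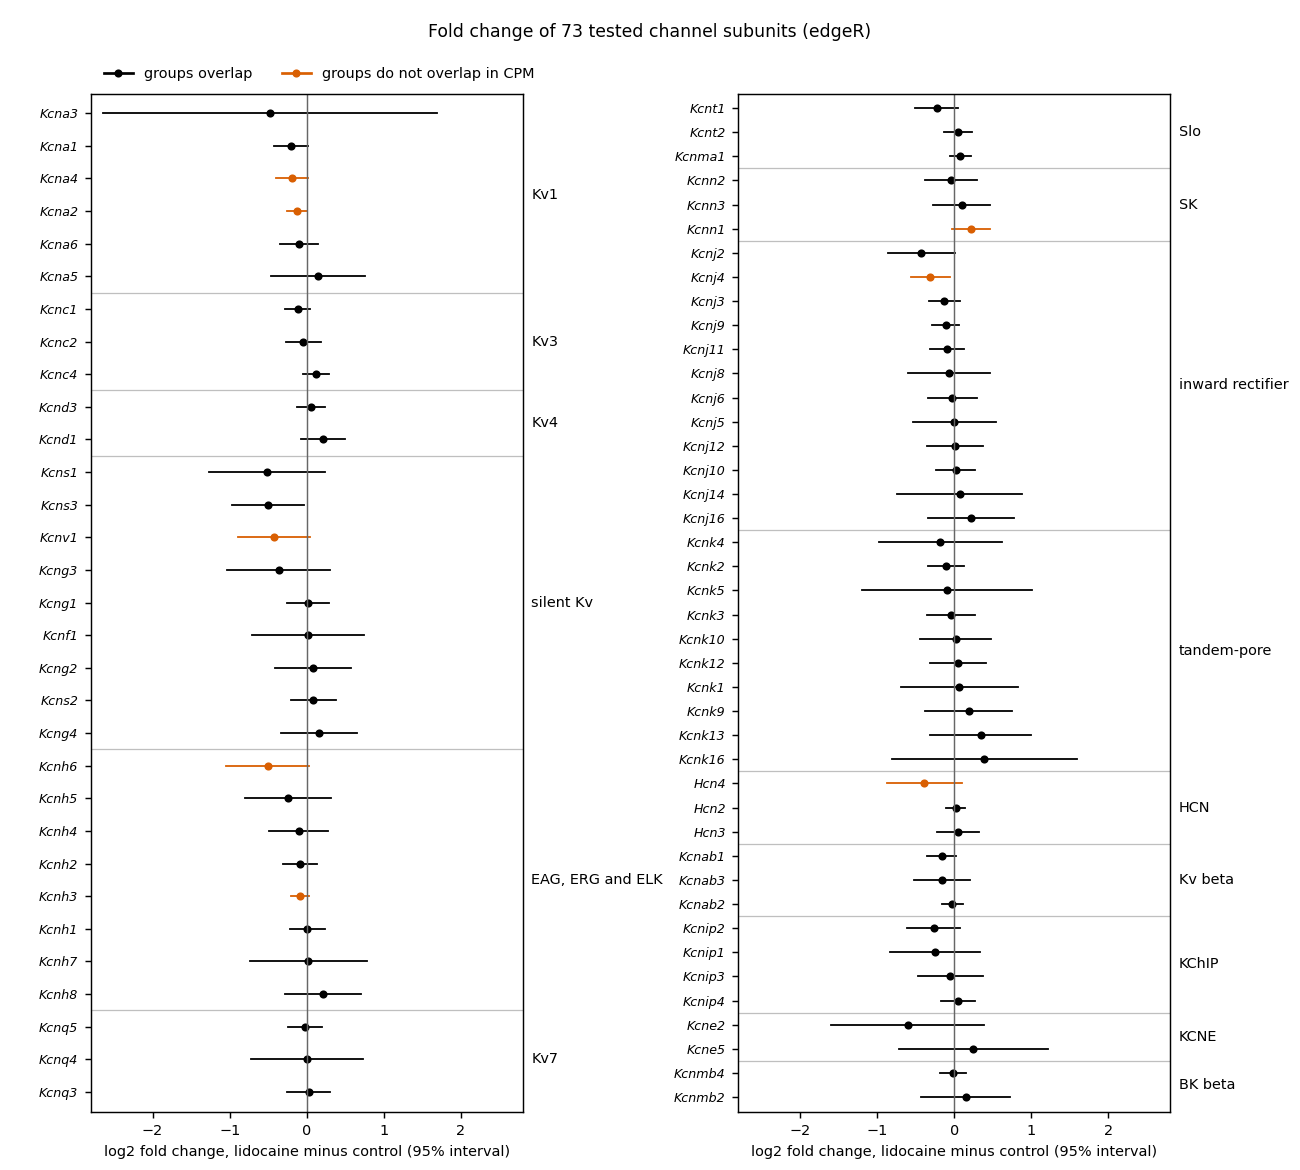
Log2 fold change (lidocaine minus control) with its 95% interval from edgeR for 73 tested members, grouped by family; orange marks members whose 3 lidocaine CPM values do not overlap the 3 control values. Only the intervals of Kcnj4 and Kcns3 leave out 0, and 7 of the 8 orange members lie to the left.

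The 3 values of one group all lay outside those of the other, in CPM, in 9 members, 11.7% of those tested, where the share over all tested genes was 9.98%. In 8 of the 9 the lidocaine values were lower, a pattern that 5.09% of all genes showed, and in Kcnn1 they were higher, which 4.89% of all genes showed. Hcn4, Kcna2, Kcna4, Kcnh3, Kcnh6, Kcnj4 and Kcnv1 were among those with lower values. In FPKM the count was 6, or 7.79%, beside 9.90% of all tested genes. In that unit 5 of the 6 were lower with lidocaine and 1 was higher, where 3.84% and 6.06% of all genes were. Kcna4, Kcnh3 and Kcnv1 were separated and lower on both scales, and Kcnk2 was so in FPKM alone. Kcnma1 was separated in FPKM alone, with higher values under lidocaine (26.04, 24.91 and 25.88 FPKM in controls against 26.26, 27.09 and 28.63), whereas Kcnj4 and Kcnn1 overlapped on that scale. With 1 library left out, a setting in which separation is easier to reach, 14 to 24 members were separated. The fewest, without control 3, were 18.2% of members beside 19.4% of all tested genes, and the most, without lidocaine 3, were 31.2% beside 22.0%. The summed oligodendrocyte markers given above were also lower in each lidocaine library than in each control, and their part in these values was not tested.

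Of the 6 Kv1 pores, 5 had negative fold changes, and the family's median was -0.16 on the log2 scale. Family medians ran from -0.18 for KCNE to 0.13 for Kv4, each with only 2 tested members, and took both signs. The KCNE values were of opposite sign, at -0.61 ± 0.43 for Kcne2 and 0.25 ± 0.42 for Kcne5 (SE). Kcna2 had 538, 551 and 594 CPM in controls against 522, 501 and 519 CPM with lidocaine. All lidocaine values were lower in CPM, whereas in FPKM the groups overlapped (30.1, 29.1 and 34.5 against 29.8, 31.4 and 29.6). Its log2 fold change of -0.13 ± 0.06 (SE) was not called (edgeR, adjusted p = 0.995). Kcna1 had 74.2, 69.9 and 75.7 CPM in controls and 60.9, 71.9 and 57.6 with lidocaine, so that lidocaine 2 lay above control 2, and its log2 fold change was -0.21 ± 0.09. Kcna4 had 27.4, 29.5 and 31.9 against 26.6, 25.7 and 25.8 CPM, which is -0.19 ± 0.09 on the log2 scale. The Kv1-binding Kcnab1 had 226, 247 and 252 against 237, 197 and 212 CPM, with overlapping groups and a log2 fold change of -0.16 ± 0.08. Kcnab2, the most abundant member, differed little, at 820.4 ± 28.4 and 805 ± 44.2 CPM (SD, n = 3 each). Its 95% interval ran from 0.893-fold to 1.08-fold.

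No other voltage-gated pore was called either, although several had separated groups. Kcnh3 had the tightest values of the separated members. They were 178, 172 and 174 CPM in controls and 164, 167 and 162 CPM with lidocaine, a log2 fold change of -0.09 ± 0.05. Kcnh6, an ERG-type channel, had 3.18, 4.48 and 4.28 against 2.41, 3.17 and 2.83 CPM, where control 1 and lidocaine 2 nearly met. The M-current gene Kcnq3 had a log2 fold change of 0.02 ± 0.12. The Kv3 genes Kcnc1, Kcnc2 and Kcnc4 had -0.11 ± 0.07, -0.04 ± 0.10 and 0.12 ± 0.07, and Kcnd3 had 0.05 ± 0.08.

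Of the silent Kv subunits, Kcns3, a modifier of Kv2 pores, had 23.6, 24.6 and 28.1 CPM in controls and 15.5, 24.0 and 14.4 CPM with lidocaine. Lidocaine 2 lay inside the control range, and lidocaine 1 and 3 lay well below it. Its log2 fold change of -0.50 ± 0.20 had an unadjusted p of 0.0369 (edgeR, adjusted p = 0.995). Kcnv1, another silent subunit, had 7.88, 8.90 and 8.57 CPM in controls and 4.70, 6.77 and 7.41 with lidocaine. Its groups were separated, with a log2 fold change of -0.42 (-0.425) ± 0.20, and of -0.25 without lidocaine 1. Kcns2, the highest of the family, had 0.09 ± 0.13.

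Inward rectifiers held the member with the smallest p. Kcnj4, a strong rectifier of forebrain neurons, had 34.6, 41.8 and 44.0 CPM in controls and 30.0 (29.99), 34.4 and 32.9 CPM with lidocaine. The highest lidocaine value, 34.35, lay just under the lowest control value, 34.57. Its log2 fold change of -0.31 ± 0.11 had an unadjusted p of 0.0250 (edgeR, adjusted p = 0.995). Its close relative Kcnj2 had 10.9, 8.40 and 13.1 CPM in controls and 8.59, 7.64 and 7.85 CPM with lidocaine, a log2 fold change of -0.43 ± 0.19 with overlapping groups. The G-protein-gated Kcnj3 and Kcnj6 had -0.13 ± 0.08 and -0.02 ± 0.14.

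The glial Kcnj10, which buffers extracellular potassium in astrocytes and is also expressed by oligodendrocytes, had 17.3, 15.9 and 16.4 CPM in controls and 18.2, 16.4 and 15.6 CPM with lidocaine. Its log2 fold change was 0.02 ± 0.11, and the 95% interval ran from 0.846-fold to 1.21-fold. Summed astrocyte markers likewise overlapped, at 4867 to 5418 CPM in controls and 5014 to 5377 CPM with lidocaine. The Kcnj10 partner Kcnj16 had 9.13, 9.47 and 9.71 CPM in controls and spread from 7.35 to 14.7 CPM with lidocaine.

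Calcium-activated channels, tandem-pore channels and HCN channels were likewise not called. Kcnn1 had 21.4, 21.8 and 18.6 CPM in controls and 24.6, 22.2 and 24.9 CPM with lidocaine. It was the only member with separated groups and higher values with lidocaine in CPM, with a log2 fold change of 0.21 ± 0.11, and in FPKM its groups overlapped (6.81, 7.02 and 5.89 against 7.67, 6.86 and 7.56). Kcnn2 had -0.04 ± 0.15 and Kcnma1 0.08 ± 0.06. Among tandem-pore genes, Kcnk9 had 0.19 ± 0.24 and Kcnk1 0.07 ± 0.33. Hcn2 had 174, 179 and 178 CPM in controls and 173, 179 and 186 CPM with lidocaine. Its log2 fold change of 0.02 ± 0.05 had one of the narrowest intervals of all members, from 0.930-fold to 1.10-fold. Hcn4 had 10.9, 13.8 and 11.7 against 10.4, 10.8 and 6.60 CPM, a log2 fold change of -0.39 ± 0.21.

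Of the remaining auxiliary subunits, Kcnip2 had 133, 138 and 125 CPM in controls and 87.6, 109 and 134 CPM with lidocaine. Lidocaine 1 and 2 lay below every control and lidocaine 3 lay among them, for a log2 fold change of -0.27 ± 0.14. It was -0.12 without lidocaine 1 and -0.43 without lidocaine 3. Kcnip3 had -0.05 ± 0.18, and Kcnmb4 had -0.02 ± 0.07. Kcne5 had 0.25 ± 0.42, and a 2-fold difference lay inside its interval.

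**Figure D4:**
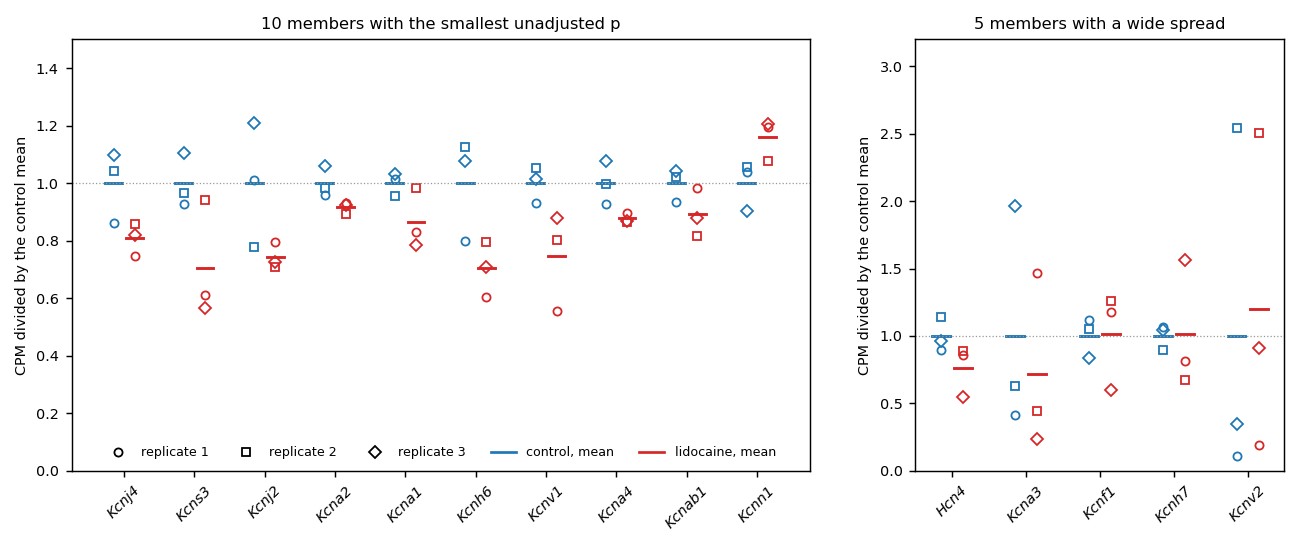
CPM of each library divided by the mean of the 3 controls, for the 10 members with the smallest unadjusted p on the left and for 5 members with a wide spread on the right; symbols mark replicate numbers, blue is control, red is lidocaine, and short lines are group means. Kcnj4, Kcna2, Kcnh6, Kcnv1, Kcna4 and Kcnn1 have separated groups on the left, while Kcnf1, Kcnh7 and Hcn4 on the right show lidocaine library 3 apart from the rest.

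Several members spread widely between libraries of the same group. The median coefficient of variation of members was 9.54% in controls and 13.1% with lidocaine, beside 9.95% and 10.5% for all tested genes. It was larger with lidocaine in 57.1% of tested members and in 52.3% of all tested genes. Lidocaine library 3 held the lowest value of the 6 in 23 of 77 members, 29.9%, whereas it did so for 18.7% of all genes with counts in every library. The following members were chosen after their values were seen. Kcnf1, a silent Kv subunit, had 59.5, 55.9 and 44.6 CPM in controls and 62.6, 67.2 and 31.9 CPM with lidocaine, so lidocaine 3 was the lowest and lidocaine 2 the highest library. Kcnh7, an ERG-type channel, went the other way, with 23.2, 19.5 and 22.8 CPM in controls and 17.8, 14.7 and 34.2 with lidocaine. Kcna3, a Kv1 pore also found on microglia, had 2.07, 3.16 and 9.92 CPM in controls and 7.41, 2.24 and 1.19 CPM with lidocaine, with fractional counts. Summed microglial markers, of which Csf1r made up most, were at 228 to 276 CPM in controls and 264 to 273 CPM with lidocaine, and their part in the Kcna3 values was not tested. Kcnv2, the member that did not pass the count filter, had 1, 25 and 3 counts in controls and 2, 25 and 9 counts with lidocaine.

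Partners that bind, anchor or assist these channels but have other names were taken from a list of 36 genes. Of these, 31 were tested, in 32 rows because Calm2 stands on 2 rows. None was called by edgeR with Benjamini-Hochberg adjustment, in either direction. The 32 rows had 18 positive and 14 negative log2 fold changes with a median of 0.03, and 1 row had an unadjusted p under 0.05. That gene was Pex5l, the HCN auxiliary protein TRIP8b, at -0.21 ± 0.08 on the log2 scale (edgeR, adjusted p = 0.995). It was named after its value was seen.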

How the data were processed

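Estimated counts and FPKM values of 6 libraries were used as deposited, per the file headers. The authors' estimated counts are not normalised and are fractional for 53.2% of tested members, as genes that share reads with others can be. The deposited FPKM values were set by the authors relative to gene length and mapped fragments. Libraries were made from total RNA with a SMARTer mRNA kit, per the labels' protocols, and the submitters' processing notes name mm10. No source used here names an aligner, counter or annotation. If mouse reads were counted on rat gene models, counts depend on how alike the genes are.

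Columns were matched to samples by group initial and replicate number. Counts were rounded, filtered with filterByExpr, scaled by TMM factors (0.991 to 1.009) and tested in R 4.3.3 by the robust quasi-likelihood F test of edgeR 4.0.16, two-sided. Adjusted p-values are Benjamini-Hochberg values over all tested genes. Standard errors and 95% intervals were derived from the F statistic. Alternatives used DESeq2 1.42.0, limma 3.58.1 (voom, and log2(FPKM + 1)), other scaling, filters, subsets of genes, a replicate block, and each library left out. The test was checked on simulated data. Every pair of libraries differed by more than sampling noise (chi-square over its degrees of freedom, 10.3 to 17.9).

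Members and lists were chosen with earlier results of these data known. Genes named are the 10 members with the smallest p, the highest of each family and a fixed set of well-known subunits; others are marked in the text or stand in counts. Some members stand in counts only and are not reported here by name.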

Additional observations from a re-analysis of the deposited data

How the results depend on the processing

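Under the alternatives tried, 0 members and 0 partner genes were called, including at an adjusted p under 0.1. The number of all genes called was 23 with DESeq2, 4 at an adjusted p under 0.1, 0 with whole-count genes only, 0 with genes above 0 in every library, and 0 to 6 with 1 library left out. Members at an unadjusted p under 0.05 numbered 2 of 77 in the main test, beside 4.36% of all tested genes. They numbered 3 of 77 with DESeq2, limma-voom or the replicate block, beside 3.93%, 4.62% and 5.09% of all tested genes. With 1 library left out they numbered 1 to 5, beside 3.69% to 5.20% of all tested genes. With whole-count genes only, 36 members were tested and 4 of them passed, where 370 of all 7407 tested genes did. The median log2 fold change of members lay between -0.061 and -0.015 with 1 library left out, and separated members numbered 14 to 24. Of all tested genes, 18.7% to 22.0% were separated in those settings. Deviations of samples with the same replicate number had correlations of 0.07, 0.03 and 0.01, beside -0.05 to 0.02 for different numbers. The labels state no pairing, and such small correlations cannot decide whether samples were paired. With the replicate block, edgeR called 0 genes in all and 0 members.

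Of 429 values for the 30 named members under 15 alternatives, 406 kept their direction and 23 turned, and none was called. Kcnj6 was 0.0028 in limma on FPKM. The other turns came from leaving out 1 library. On the log2 scale, the lowest and highest values with 1 library left out were -0.0067 and 0.048 for Hcn2, -0.071 and 3.3e-05 for Kcnab2, and -0.15 and 0.029 for Kcnc2. They were -0.026 and 0.13 for Kcnd3, -0.21 and 0.47 for Kcne5, -0.23 and 0.089 for Kcnip3, -0.045 and 0.069 for Kcnj10, and -0.17 and 0.077 for Kcnj6. They were -0.18 and 0.37 for Kcnk1, -0.11 and 0.38 for Kcnk9, -0.040 and 0.031 for Kcnmb4, -0.16 and 0.095 for Kcnn2, -0.11 and 0.13 for Kcnq3, and -0.042 and 0.18 for Kcns2. The cause was not tested. With 1 library left out, 9 of the 30 kept their sign but moved by over 1.5 times, among them Kcns3 (-0.77 to -0.36), Kcnj2 (-0.58 to -0.26) and Kcnma1 (0.036 to 0.12). For the 8 members named above a 2-fold difference lay inside the interval, and how much of that width comes from depth and how much from spread between libraries was not tested.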
